A study of Mus musculus with 12 samples.

Results

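The genes described here are 9 enzymes of mitochondrial fatty acid oxidation, Cpt1a, Cpt1b, Cpt2, Acadvl, Acadl, Acadm, Hadha, Hadhb and Acot2, out of 15267 genes measured. They were taken by name, each from the 1 probe set whose annotation gives that symbol alone, and all 9 were found. Their levels were read in 3T3-L1 adipocytes, fat cells differentiated in culture from a mouse fibroblast line, on 12 Affymetrix arrays, 3 in each of 4 groups. The groups were TBLR1 shRNA with isoproterenol, TBLR1 shRNA without it, control shRNA with isoproterenol and control shRNA without it. Every group carried an adenovirus, given on day 9 of differentiation at a multiplicity of infection of 500, so that the comparison groups are infected cells as well. After 3 days the cells were kept for 2 h in Krebs-Ringer buffer, and the treated cells then received 10 µM isoproterenol for 3 h. Isoproterenol is an agonist of β-adrenergic receptors, which raise cyclic AMP and start the breakdown of stored fat. TBLR1, encoded by Tbl1xr1, is a subunit of corepressor complexes built on NCoR and SMRT, and helps to replace them with coactivators when a nuclear receptor is activated.

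Long-chain fatty acids enter the mitochondrial matrix as carnitine esters. Carnitine palmitoyltransferase 1 in the outer membrane makes the ester and is the step that malonyl-CoA inhibits, and carnitine palmitoyltransferase 2 in the inner membrane turns it back into acyl-CoA. Each round of β-oxidation then begins with an acyl-CoA dehydrogenase matched to chain length, and for long chains the remaining steps are carried out by the trifunctional protein. Genes of this pathway are classical targets of PPAR nuclear receptors and of the coactivator PGC-1α. White adipocytes store and release fatty acids more than they burn them, and brown adipocytes and muscle are the tissues best known for high oxidation.

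The start regions of 8 of the 9 genes were available in RefSeq (build GRCm38.p6), each as 300 bases from 250 before to 50 after the start of the gene, and Cpt1b is named only. Those of Cpt1a, Acadm and Acot2 are printed because a half-site was found in each of them and because Cpt1a and Acadm differ by shRNA, and Acot2 with isoproterenol, in the results below. That of Hadha is printed because it is shared with Hadhb. In the first 3 sequences capitals mark the nuclear receptor half-site (AGGTCA on either strand) and the cyclic AMP response element half-site (TGACG on either strand). In the Hadha sequence capitals mark the bases that also lie in the Hadhb window.
Cpt1a, chr19:3323051-3323350, plus strand: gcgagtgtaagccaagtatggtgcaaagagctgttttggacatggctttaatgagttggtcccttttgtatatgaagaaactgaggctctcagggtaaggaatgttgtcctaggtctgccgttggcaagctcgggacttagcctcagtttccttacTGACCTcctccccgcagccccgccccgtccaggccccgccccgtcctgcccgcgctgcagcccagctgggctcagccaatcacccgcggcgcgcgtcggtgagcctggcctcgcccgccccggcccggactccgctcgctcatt
Acadm, chr3:153944594-153944893, minus strand: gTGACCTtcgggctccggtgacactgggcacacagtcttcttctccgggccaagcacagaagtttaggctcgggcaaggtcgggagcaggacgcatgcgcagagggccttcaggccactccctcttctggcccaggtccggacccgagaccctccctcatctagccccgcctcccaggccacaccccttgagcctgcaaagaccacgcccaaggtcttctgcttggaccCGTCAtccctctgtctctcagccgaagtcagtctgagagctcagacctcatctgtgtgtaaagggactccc
Acot2, chr12:83987611-83987910, plus strand: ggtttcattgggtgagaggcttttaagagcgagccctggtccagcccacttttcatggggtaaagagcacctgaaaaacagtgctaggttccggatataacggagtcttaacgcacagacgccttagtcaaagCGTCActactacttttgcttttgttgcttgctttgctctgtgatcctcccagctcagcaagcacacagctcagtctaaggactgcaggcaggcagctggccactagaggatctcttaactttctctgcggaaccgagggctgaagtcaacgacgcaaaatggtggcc
Hadha, chr5:30154931-30155230, minus strand: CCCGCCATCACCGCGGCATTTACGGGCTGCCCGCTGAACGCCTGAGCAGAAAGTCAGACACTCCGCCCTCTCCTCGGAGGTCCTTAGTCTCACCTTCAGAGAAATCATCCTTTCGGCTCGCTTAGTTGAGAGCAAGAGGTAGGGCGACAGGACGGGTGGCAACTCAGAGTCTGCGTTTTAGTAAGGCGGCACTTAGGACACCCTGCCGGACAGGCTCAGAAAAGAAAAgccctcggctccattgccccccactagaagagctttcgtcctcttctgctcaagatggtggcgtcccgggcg

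Hadha and Hadhb lie head to head, with 272 bases between their starts, and their windows share 228 bases. The half-site AGGTCA was found in the windows of Cpt1a (at -94), Acadm (at -249) and Acadvl (at -87), and not in those of Cpt2, Acadl, Hadha, Hadhb and Acot2. Among all 32851 windows 16.3% hold it. The half-site TGACG, which shares the letters TGAC with the reverse complement of AGGTCA, was found in the windows of Acadm (at -21) and Acot2 (at -117), against 20.8% of all windows. The full cyclic AMP response element TGACGTCA (1.79% of all windows), the element TCAAGGTCA of estrogen-related receptors (0.423%) and the direct repeat AGGTCANAGGTCA (0.0396%) were in none of the 8 windows. Each of these longer motifs contains one of the half-sites. The GC box (GGGCGG on either strand, in 35.7% of all windows) was found 3 times each in the windows of Cpt1a and Cpt2, 4 times each in those of Acadl and Hadhb and 1 time in that of Hadha. A match is a run of letters and was not set against any binding data.

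The knockdown was visible in all TBLR1 shRNA cells. Tbl1xr1 stood at 6.48, 6.41 and 6.37 (log2 level) in TBLR1 shRNA cells with isoproterenol and at 6.45, 6.47 and 6.43 without it, against 7.23, 7.34 and 7.29 in control shRNA cells with isoproterenol and 7.20, 7.27 and 7.26 without it. The mean difference was -0.83 (two-sided exact permutation test within treatment, p = 0.005, the smallest that its 400 arrangements can give). Adipocyte markers moved with the shRNA. The mean log2 level of 12 of them lay at 11.69 to 11.72 and 11.73 to 11.77 in TBLR1 shRNA cells with and without isoproterenol, against 12.16 to 12.21 and 12.20 to 12.25 in control shRNA cells with and without it. Preadipocyte markers, 11 in all, had mean levels of 10.30 to 10.43 in TBLR1 shRNA cells, against 10.13 to 10.25 in control shRNA cells. Single markers went both ways, with log2 differences (TBLR1 minus control shRNA, without isoproterenol) from 1.29 for Acta2 and 1.27 for Tagln to -0.81 for Col1a1 and a median of -0.03. The part of either list in the results below was not tested. In such bulk samples fewer cells of a type and less RNA per cell cannot be told apart. Markers of muscle and of brown adipocytes, which oxidise fatty acids strongly, had mean levels of 6.47 to 6.55 and 6.23 to 6.39 over all arrays, under the array median of 7.14. Single markers among them were called. Ucp1 rose with isoproterenol, by 0.31 with control shRNA and by 0.27 with TBLR1 shRNA. By shRNA, without isoproterenol, Acta1 rose by 0.68 and Des fell by 0.35. The actin 3′ minus 5′ difference, a measure of RNA quality, was 0.992 to 1.05 and 0.982 to 1.04 in TBLR1 and control shRNA cells with isoproterenol, against 0.877 to 0.912 and 0.928 to 0.957 in those without it. Every treated array was above every untreated one, and the untreated shRNA groups did not overlap. The part of RNA quality in the differences below was not tested.

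With TBLR1 shRNA the oxidation enzymes did not move as a block. Cpt1a more than doubled its level, Acadl rose slightly, Acadm fell, to 72.1% of the control level without isoproterenol, and most of the other members did not pass the test. Differences below are log2 differences ± SE from 1 limma model over all 12 arrays, with p-values adjusted over all genes by Benjamini and Hochberg, and a gene is called at an adjusted p under 0.05. Without isoproterenol 2 members rose and 1 fell, against 37.7% of all genes called, 17.7% higher and 20% lower. With isoproterenol 2 rose and 2 fell, against 41.7%, 19.5% higher and 22.3% lower. Their median differences were 0.04 and -0.00, beside -0.01 and -0.01 over all genes.

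**Figure D1:**
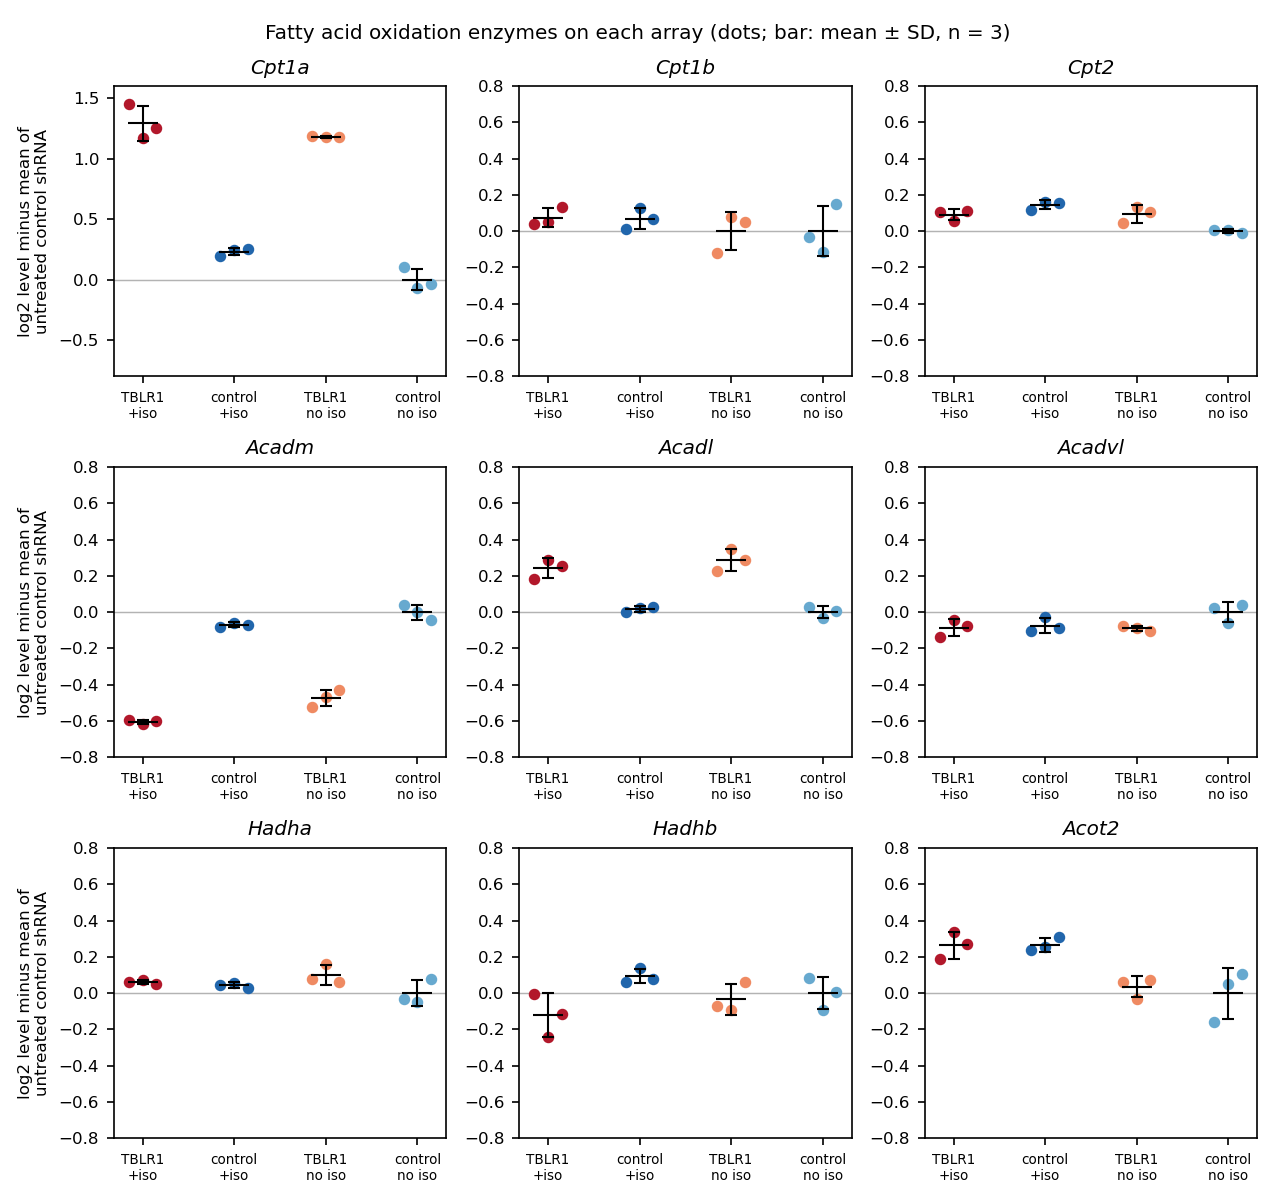
The log2 level of each of the 9 genes on each array (dots), minus the mean of untreated control shRNA cells, with the group mean and SD as a bar (n = 3). Cpt1a, Acadm and Acadl separate by shRNA, and Acot2 is higher with isoproterenol under either shRNA.

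Cpt1a, the liver-type carnitine palmitoyltransferase 1, had log2 levels of 9.07, 8.79 and 8.88 in TBLR1 shRNA cells with isoproterenol, against 7.82, 7.86 and 7.87 in control shRNA cells with isoproterenol. Without isoproterenol it stood at 8.80, 8.80 and 8.79 in TBLR1 shRNA cells, against 7.72, 7.55 and 7.59 in control shRNA cells. Every TBLR1 array was above every control array, with or without the agonist. The difference was 1.18 ± 0.06 without isoproterenol (2.26-fold, adjusted p = 6.22e-10) and 1.06 ± 0.06 with it (2.09-fold, adjusted p = 1.02e-09). In size the first of these lies at the 99.3rd percentile of all genes. The call held in all 21 alternatives run, in which the difference without isoproterenol was 1.14 to 1.25. Here and below, not all of these could move the difference of a member. Array medians were already equal before median centring, and averaging several probe sets leaves a gene with 1 probe set as it was. Leaving out an array outside a comparison changes only the estimate of spread.

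Cpt1b, the muscle-type enzyme for the same step, showed no such difference. Its log2 levels were 7.24, 7.24 and 7.33 in TBLR1 shRNA cells with isoproterenol and 7.08, 7.27 and 7.25 in those without it, against 7.21, 7.33 and 7.26 and 7.16, 7.08 and 7.35 in the matching control shRNA cells. These values overlap throughout. The fitted difference was 0.00 ± 0.06 without isoproterenol (95% interval -0.136 to 0.140, adjusted p = 0.985) and 0.01 ± 0.06 with it (-0.132 to 0.144, adjusted p = 0.958). Cpt1b overlaps an annotated read-through transcript with its neighbour Chkb, so its probe set may read both.

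Cpt2 had log2 levels of 10.96, 10.92 and 10.97 in TBLR1 shRNA cells with isoproterenol, against 10.98, 11.02 and 11.02 in control shRNA cells with isoproterenol. Without isoproterenol it had 10.90, 10.99 and 10.97 in TBLR1 shRNA cells, against 10.87, 10.87 and 10.85 in control shRNA cells. The arrays did not overlap in either comparison, and the order was opposite. Non-overlapping groups were found for 46.9% of all genes without isoproterenol and 49.1% with it. Neither difference was called, at 0.09 ± 0.04 without isoproterenol (adjusted p = 0.0613) and -0.05 ± 0.04 with it (adjusted p = 0.284). The first was called in 6 of the 21 alternatives, 1 of them without replicate 1 of the untreated TBLR1 shRNA cells (0.12, adjusted p = 0.0308).

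Of the acyl-CoA dehydrogenases, the medium-chain and long-chain enzymes went opposite ways with TBLR1 shRNA and the very-long-chain enzyme was not called. Acadm, the medium-chain enzyme, had log2 levels of 11.18, 11.15 and 11.17 in TBLR1 shRNA cells with isoproterenol, against 11.69, 11.71 and 11.70 in control shRNA cells with isoproterenol. Without isoproterenol the values were 11.25, 11.30 and 11.34 in TBLR1 shRNA cells, against 11.81, 11.77 and 11.73 in control shRNA cells. All TBLR1 arrays were below all control arrays. In untreated cells Acadm was at 72.1% of the control shRNA level (log2 difference -0.47 ± 0.04, adjusted p = 6.93e-08). In treated cells it was at 69.0% (-0.53 ± 0.04, adjusted p = 1.21e-08). Both calls held in all 21 alternatives.

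Acadl, the long-chain enzyme, had log2 levels of 11.95, 12.05 and 12.02 in TBLR1 shRNA cells with isoproterenol, against 11.76, 11.79 and 11.79 in control shRNA cells with isoproterenol. In untreated cells it had 11.99, 12.11 and 12.05 with TBLR1 shRNA, against 11.79, 11.73 and 11.77 with control shRNA. The shRNA groups did not overlap, and TBLR1 was the higher. The rise was 0.29 ± 0.04 without isoproterenol (1.22-fold, adjusted p = 4.29e-05) and 0.23 ± 0.04 with it (1.17-fold, adjusted p = 0.000344), and both calls held in all 21 alternatives. Acadvl, which acts on very long chains at the inner membrane, lay between 11.63 and 11.81 on the 12 arrays. Its difference was -0.09 ± 0.04 without isoproterenol (adjusted p = 0.107) and -0.01 ± 0.04 with it (adjusted p = 0.866). The untreated shRNA groups did not overlap, and the difference was called only without replicate 2 of the untreated control shRNA cells (-0.12, adjusted p = 0.0482).

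Hadha and Hadhb encode the α and β subunits of the trifunctional protein. Hadha lay between 10.48 and 10.69 on all arrays and was not called, at 0.10 ± 0.04 without isoproterenol (adjusted p = 0.0773) and 0.02 ± 0.04 with it (adjusted p = 0.804). The first of these was called in 4 of the 21 alternatives, 1 of them without replicate 3 of the untreated control shRNA cells (0.14, adjusted p = 0.0180). Hadhb had log2 levels of 13.12, 12.88 and 13.01 in TBLR1 shRNA cells with isoproterenol, against 13.19, 13.26 and 13.20 in control shRNA cells with isoproterenol. These groups did not overlap, and Hadhb fell by 0.21 ± 0.06 on the log2 scale, to 86.2% of the control level (adjusted p = 0.0095). The call was lost without replicate 2 of the TBLR1 shRNA cells with isoproterenol (-0.15, adjusted p = 0.0589), with cyclic loess (adjusted p = 0.0507) and with centring on the hybridisation controls (-0.10, adjusted p = 0.209). Without isoproterenol Hadhb had 13.05, 13.03 and 13.19 in TBLR1 shRNA cells, against 13.21, 13.03 and 13.13 in control shRNA cells, a difference of -0.03 ± 0.06 (adjusted p = 0.732).

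Acot2, a mitochondrial thioesterase that frees fatty acids from acyl-CoA, did not differ detectably by shRNA. The difference was 0.04 ± 0.06 without isoproterenol (95% interval -0.0941 to 0.164, adjusted p = 0.714) and -0.00 ± 0.06 with it (-0.132 to 0.127, adjusted p = 0.981). It has close copies beside it on chromosome 12, which carries 6 Acot genes in RefSeq, and its probe set may read Acot1 in part.

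The widest isoproterenol difference of any member was 0.27 on the log2 scale, that of Acot2, which rose under either shRNA. Acot2 stood at 8.86, 9.01 and 8.94 in TBLR1 shRNA cells with isoproterenol, against 8.73, 8.64 and 8.75 in those without it. In control shRNA cells it stood at 8.91, 8.93 and 8.98 with isoproterenol, against 8.51, 8.72 and 8.78 without it. Treated arrays were above untreated ones under each shRNA, and groups that did not overlap were found for 25.2% of all genes with TBLR1 shRNA and 33.2% with control shRNA. Acot2 rose by 0.23 ± 0.06 with TBLR1 shRNA (1.17-fold, adjusted p = 0.0261) and by 0.27 ± 0.06 with control shRNA (1.20-fold, adjusted p = 0.00497). The call with control shRNA held in all 21 alternatives. That with TBLR1 shRNA was lost without replicate 2 or 3 of the untreated TBLR1 shRNA cells (adjusted p = 0.125 and 0.0553), without replicate 2 or 3 of the treated ones (0.119 and 0.0766) and with centring on the hybridisation controls (0.0507).

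In control shRNA cells 3 members rose with isoproterenol and none fell, against 18.6% of all genes called, 7.7% higher and 10.9% lower. Besides Acot2 these were Cpt1a (0.23 ± 0.06, 1.17-fold, adjusted p = 0.0130) and Cpt2 (0.15 ± 0.04, 1.11-fold, adjusted p = 0.0117). For both genes all treated arrays were above all untreated ones. The Cpt1a call was lost without replicate 2 of the untreated control shRNA cells (0.20, adjusted p = 0.0655) and without replicate 3 of the treated ones (0.22, adjusted p = 0.0506). Centring on the hybridisation controls ended both calls (adjusted p = 0.058 for Cpt1a and 0.359 for Cpt2). In TBLR1 shRNA cells 1 member rose (Acot2) and 1 fell (Acadm), against 8.86% of all genes, 4.09% higher and 4.78% lower. Acadm fell by 0.13 ± 0.04, to 91.3% of the untreated level (adjusted p = 0.0416), and lost its call in 13 of the 21 alternatives, 9 of which leave out 1 array (adjusted p = 0.0505 to 0.180). The 3 arrays whose removal kept the call were replicates 1 and 3 of the untreated control shRNA cells and replicate 1 of the untreated TBLR1 shRNA cells. Cpt1a and Cpt2 in TBLR1 shRNA cells differed by 0.11 ± 0.06 (adjusted p = 0.293) and -0.00 ± 0.04 (adjusted p = 0.976).

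**Figure D2:**
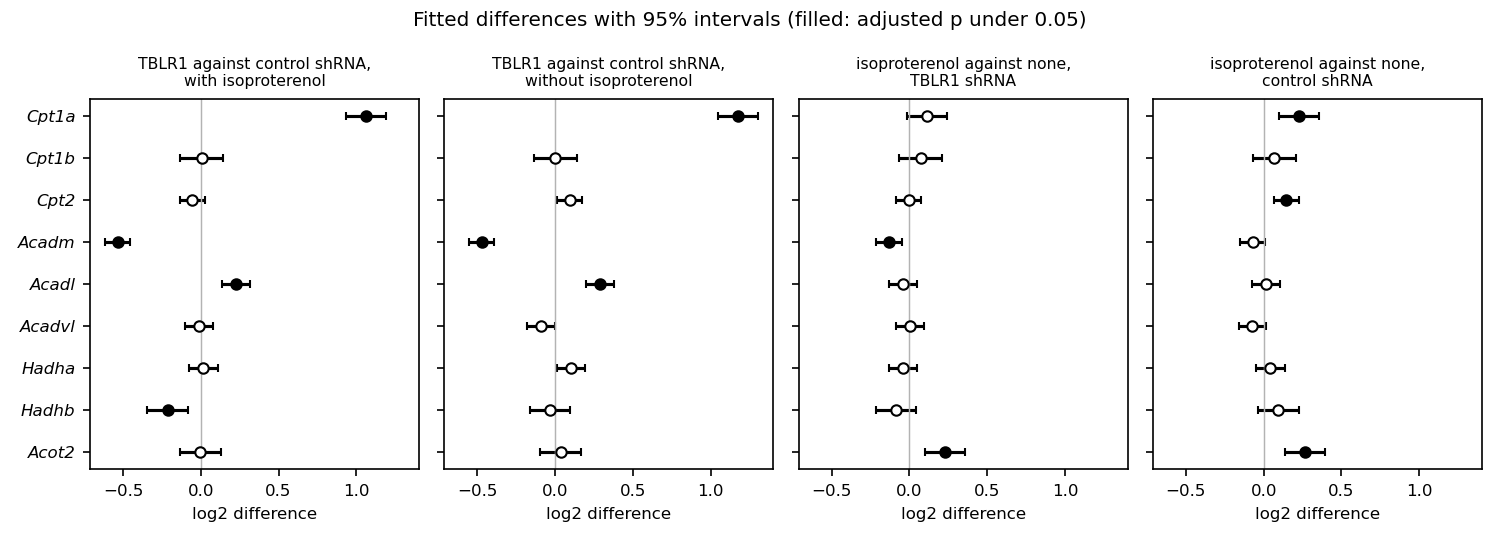
Fitted log2 differences of the 9 genes with 95% intervals in 4 panels, 1 for each comparison of groups, with filled points at an adjusted p under 0.05. In the panels of TBLR1 minus control shRNA, Cpt1a lies farthest above 0 (1.06 with and 1.18 without isoproterenol) and Acadm farthest below it (-0.53 and -0.47), and all isoproterenol differences lie nearer to 0 than those of Cpt1a and Acadm by shRNA.

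The isoproterenol response of no member was called different between the shRNAs, against 2.4% of all genes. By limma 1 member had an unadjusted p under 0.05. That was Cpt2, whose response differed by -0.15 ± 0.05, TBLR1 minus control shRNA ( adjusted p = 0.195). The difference was -0.18 ± 0.09 for Hadhb (adjusted p = 0.381), -0.08 ± 0.06 for Hadha (adjusted p = 0.604) and -0.12 ± 0.09 for Cpt1a (adjusted p = 0.615). The intervals of these differences still allow sizes of -0.262 for Cpt2, -0.365 for Hadhb and -0.298 for Cpt1a. The shRNA comparisons share no arrays with one another, and each shares 3 arrays with each of the isoproterenol comparisons.

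Among themselves the 9 genes had unlike profiles. The range of the 4 group means was 1.29 for Cpt1a, 0.60 for Acadm, 0.29 for Acadl, 0.27 for Acot2, 0.21 for Hadhb, 0.15 for Cpt2, 0.10 for Hadha, 0.090 for Acadvl and 0.075 for Cpt1b (log2 units). Cpt1a in TBLR1 shRNA cells with and without isoproterenol had means of 8.91 ± 0.14 and 8.80 ± 0.0052 (SD, n = 3), whose arrays overlap. Its means in control shRNA cells, 7.85 ± 0.030 with isoproterenol and 7.62 ± 0.090 without it, were lower, and those arrays did not overlap. Over the 12 arrays, each gene centred on its own mean, Cpt2 and Hadha were the closest pair (root mean square difference 0.0603) and Cpt1a and Acadm the most distant (0.826). The genes of the whole table closest to Cpt1a by this measure were Arxes1 (0.0768), 4930402H24Rik (0.0929) and Ehd4 (0.0944), beside an SD of 0.597 for Cpt1a itself. Closest to Acadm, with an SD of 0.270, were Sh3d19 (0.0299), Lrig3 (0.0310) and Sdhaf3 (0.0327). Acadl, with an SD of 0.140, was closest to Mtmr2 (0.0341), Ipo8 (0.0355) and Idnk (0.0358).

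More of the other enzymes and electron acceptors of mitochondrial β-oxidation were called lower than higher in TBLR1 shRNA cells. By shRNA 17.7% of all genes were called higher and 20% lower without isoproterenol, and 19.5% and 22.3% with it. These shares apply to each list below as well. Of 19 such enzymes and acceptors measured, 3 rose and 11 fell without isoproterenol, and 3 rose and 13 fell with it. Their medians were -0.13 and -0.19, beside -0.01 over all genes in both. The list is not limited to fatty acids. Acad8, Acadsb, Acat1 and Hsd17b10 act in the breakdown of branched-chain amino acids. Without isoproterenol they were among those that fell (-0.19, -0.38, -0.13 and -0.27, added after their values were seen). When arrays were instead centred on the hybridisation controls, the all-gene median shifted by 0.070 (log2) without isoproterenol and by 0.112 with it. Of the 19, 3 then rose and 7 fell in either comparison, with medians of -0.06 without isoproterenol and -0.08 with it. Etfdh, which passes electrons from the dehydrogenases to ubiquinone, rose by 0.42 ± 0.05 without isoproterenol (adjusted p = 6.55e-06) and 0.47 ± 0.05 with it (adjusted p = 1.25e-06). Eci1, an isomerase needed for unsaturated fatty acids, fell by 0.42 ± 0.04 without isoproterenol (adjusted p = 2.29e-07) and by 0.41 ± 0.04 with it (adjusted p = 2.11e-07). Acad9, an acyl-CoA dehydrogenase that also assembles respiratory complex I, stood at 8.44, 8.29 and 8.36 in TBLR1 shRNA cells with isoproterenol, against 8.86, 8.96 and 8.91 in control shRNA cells with isoproterenol (-0.54 ± 0.05, adjusted p = 2.8e-07). Acad11 and Acadsb, dehydrogenases of very-long-chain and short branched-chain substrates, fell as well (-0.42 and -0.38 without isoproterenol). Not all dehydrogenases of the list fell. Acads, the short-chain enzyme, rose by 0.37 ± 0.05 without isoproterenol (adjusted p = 3.98e-05). Acaa2, a thiolase, rose by 0.24 ± 0.05 without it (adjusted p = 0.000871). These differences of Acads and Acaa2 were added after their values were seen. Slc25a20, the carrier of acylcarnitines across the inner membrane, named for its role after its values were seen, fell with isoproterenol present (-0.16 ± 0.05, adjusted p = 0.00957) and was not called without it (-0.06 ± 0.05, adjusted p = 0.319). The fall lost its call after centring on the hybridisation controls (-0.05, adjusted p = 0.526) and without replicate 2 of the TBLR1 shRNA cells with isoproterenol (-0.12, adjusted p = 0.0559).

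**Figure D3:**
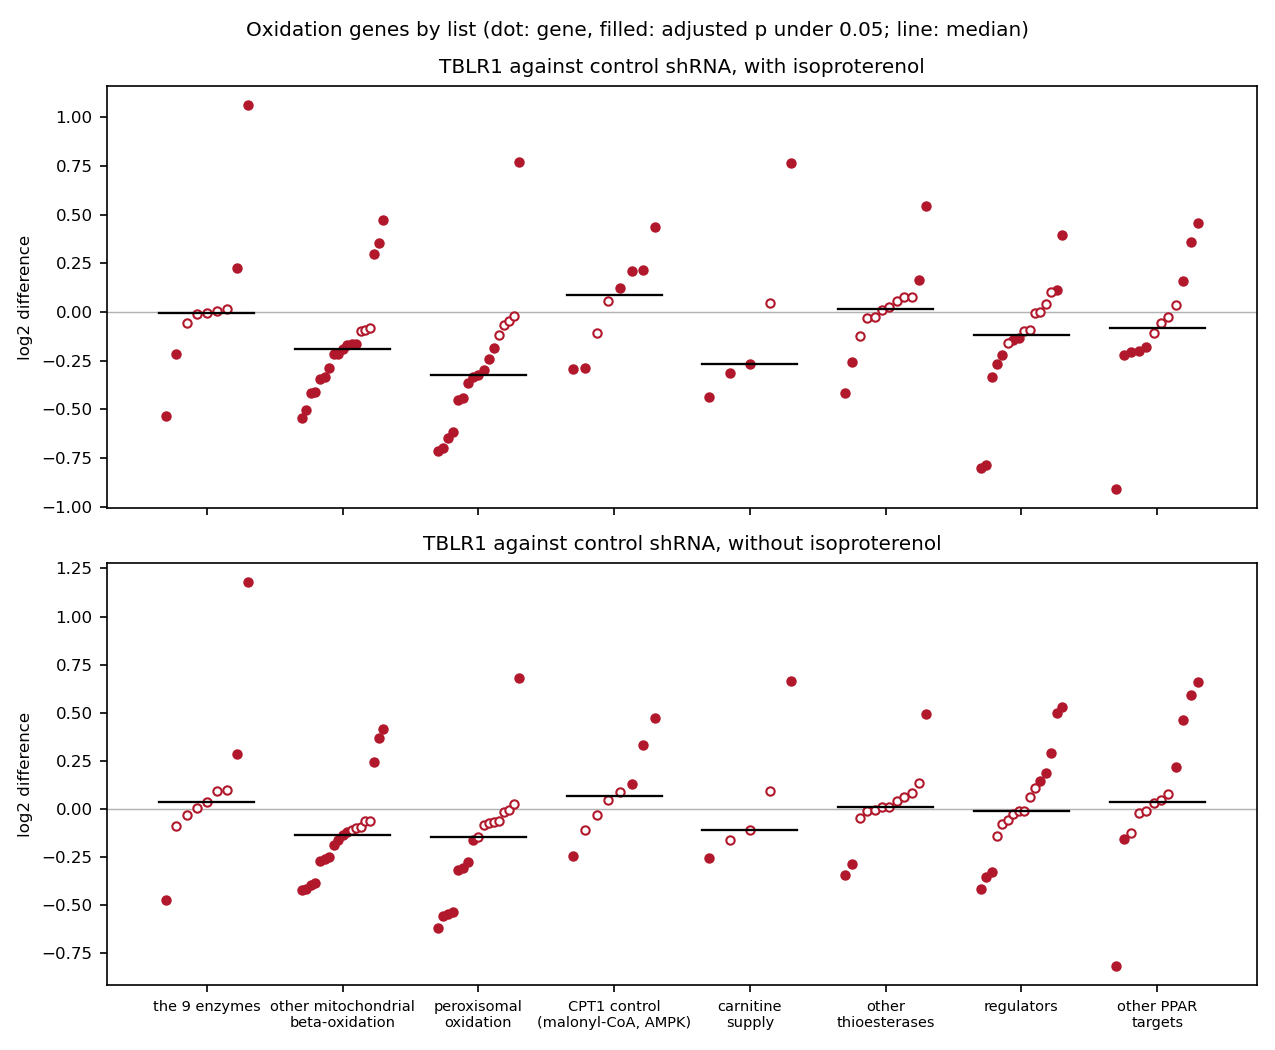
Log2 differences of TBLR1 minus control shRNA for each measured gene of the oxidation lists (dots, filled at an adjusted p under 0.05) with the list median as a line, with and without isoproterenol in separate panels. The other mitochondrial enzymes (medians -0.19 with isoproterenol and -0.13 without it) and the peroxisomal genes (-0.32 and -0.15) lie mostly below 0, and the 9 members lie on both sides.

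Peroxisomes shorten very-long-chain and branched fatty acids. Of 17 measured genes of peroxisomal oxidation and transport, 1 rose and 8 fell without isoproterenol, and 1 rose and 12 fell with it (1 and 7, and 1 and 10, after centring on the hybridisation controls). The medians were -0.15 and -0.32 (-0.08 and -0.21 after that centring). The 1 that rose was Pex11a, a membrane protein of dividing peroxisomes. It stood at 10.31, 10.22 and 10.33 in TBLR1 shRNA cells with isoproterenol, against 9.52, 9.54 and 9.49 in control shRNA cells with isoproterenol, and the difference was 0.77 ± 0.04 (1.71-fold, adjusted p = 6.2e-10). Without isoproterenol it was 0.68 ± 0.04 (1.60-fold, adjusted p = 3.6e-09). Hacl1, a lyase of α-oxidation, fell by 0.62 ± 0.04 without isoproterenol and by 0.71 ± 0.04 with it (adjusted p = 1.75e-08 and 2.26e-09). Abcd2, an importer of very-long-chain acyl-CoA, fell by 0.55 ± 0.07 and by 0.70 ± 0.07, and Acox2, an oxidase of branched chains, by 0.56 ± 0.07 and by 0.65 ± 0.07, without and with isoproterenol.

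Cpt1c, the third carnitine palmitoyltransferase 1 gene, known mainly from neurons, rose with TBLR1 shRNA alongside Cpt1a. It stood at 7.77, 7.80 and 7.79 in TBLR1 shRNA cells with isoproterenol and 7.65, 7.74 and 7.60 without it, against 7.07, 6.93 and 7.05 and 7.01, 7.01 and 6.97 in the matching control shRNA cells. The differences were 0.77 ± 0.05 with isoproterenol (1.70-fold, adjusted p = 1.97e-09) and 0.67 ± 0.05 without it (1.59-fold, adjusted p = 1.45e-08). Of the 5 carnitine supply genes measured, which include Cpt1c, 1 rose and 1 fell without isoproterenol, and 1 rose and 3 fell with it (medians -0.11 and -0.26). After centring on the hybridisation controls these were 1 and 1, and 1 and 2 (medians -0.04 and -0.15). Among the 8 measured genes of malonyl-CoA and AMPK control, 3 rose and 1 fell without isoproterenol, and 4 rose and 2 fell with it (medians 0.07 and 0.09), and after that centring 3 and 1, and 5 and 2 (medians 0.14 and 0.20). Prkaa1, a catalytic subunit of AMPK, rose with TBLR1 shRNA by 0.33 ± 0.09 without isoproterenol (adjusted p = 0.00819) and by 0.44 ± 0.09 with it (adjusted p = 0.000858). Prkaa2, also a catalytic subunit, fell by 0.29 with isoproterenol and was not called without it (-0.11 ± 0.06, adjusted p = 0.166). Prkag1, a regulatory subunit of AMPK, fell by 0.24 ± 0.04 without isoproterenol and by 0.29 ± 0.04 with it. Stk11 rose by 0.47 ± 0.04 without isoproterenol (adjusted p = 1.53e-07). Of 12 other thioesterases 1 rose and 2 fell without isoproterenol, and 2 rose and 2 fell with it (medians 0.01 and 0.02), and after that centring 2 and 2, and 5 and 1 (medians 0.08 and 0.13). Beside the counts of these lists, 37.7% of all genes were called without isoproterenol and 41.7% with it. Acot7, a thioesterase best known from brain, rose by 0.49 ± 0.05 without isoproterenol (adjusted p = 3.9e-07), and Acot13, a mitochondria-associated one, fell by 0.34 ± 0.04 (adjusted p = 2.3e-06). Acot1, the close copy of Acot2, named after its values were seen, did not pass the test with isoproterenol in either shRNA group (0.04 ± 0.05 with TBLR1 and 0.00 ± 0.05 with control shRNA).

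Among 16 transcription factors and coregulators of oxidation genes, 5 rose and 3 fell with TBLR1 shRNA without isoproterenol, and 2 rose and 7 fell with it (6 and 3, and 3 and 3, after centring on the hybridisation controls). The medians were -0.01 and -0.12, which became 0.06 and -0.00 with that centring. Ppargc1b, a relative of PGC-1α, rose by 0.53 ± 0.06 without isoproterenol (adjusted p = 4.6e-06). Pprc1 rose by 0.50 ± 0.05 without isoproterenol (adjusted p = 9.37e-07) and by 0.40 with it. Esrra, an estrogen-related receptor that works with PGC-1α, fell by 0.42 ± 0.04 without isoproterenol and by 0.33 ± 0.04 with it. Lpin1 fell by 0.36 ± 0.05 without isoproterenol and by 0.78 with it. Pparg, the PPAR that drives fat cell differentiation, was picked for its isoproterenol response, and its shRNA differences were added after their values were seen. With TBLR1 shRNA it fell by 0.33 ± 0.05 without isoproterenol (adjusted p = 4.47e-05) and by 0.13 ± 0.05 with it (adjusted p = 0.0397). The second call was lost with cyclic loess (-0.08, adjusted p = 0.203), with centring on the hybridisation controls (-0.02, adjusted p = 0.799) and without replicate 2 or 3 of the TBLR1 shRNA cells with isoproterenol (adjusted p = 0.104 and 0.134) or of the control shRNA cells with isoproterenol (0.167 and 0.0532). Isoproterenol lowered Pparg in control shRNA cells (-0.34 ± 0.05, adjusted p = 0.000115) and its response was not called in TBLR1 shRNA cells (-0.14 ± 0.05, adjusted p = 0.0944), and the difference of these responses was not called (0.20 ± 0.07, adjusted p = 0.180). Ppara and Ppard, named for their role after their values were seen, were not called in any of the 5 comparisons. Of 12 PPAR targets outside oxidation, 4 rose and 2 fell without isoproterenol (median 0.04). With it 3 rose and 5 fell (median -0.08), and after centring on the hybridisation controls 3 rose and 1 fell (median 0.03). Angptl4, a secreted inhibitor of lipoprotein lipase, rose by 0.59 ± 0.05 without isoproterenol (1.51-fold, adjusted p = 1.08e-07) and by 0.46 ± 0.05 with it. Plin2, a lipid droplet coat protein, rose by 0.46 ± 0.05 without isoproterenol and by 0.36 ± 0.05 with it. Cidec, a protein that enlarges lipid droplets and is also among the adipocyte markers, fell by 0.82 ± 0.05 and by 0.91 ± 0.05.

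Isoproterenol raised Ppargc1a, which encodes PGC-1α, by far more than any of the 9 enzymes, and by less with TBLR1 shRNA. Its log2 levels were 9.76, 9.52 and 9.57 with isoproterenol and 7.80, 7.86 and 7.94 without it in TBLR1 shRNA cells, against 10.32, 10.59 and 10.34 with isoproterenol and 7.60, 7.57 and 7.56 without it in control shRNA cells. The response was 1.75 ± 0.07 with TBLR1 shRNA (3.36-fold, adjusted p = 2.01e-10) and 2.84 ± 0.07 with control shRNA (7.16-fold, adjusted p = 2.61e-13). The difference between the responses was -1.09 ± 0.10 (adjusted p = 1.95e-05). Pdk4, a kinase that turns off pyruvate dehydrogenase and a PPAR target, responded by 1.16 ± 0.07 with TBLR1 shRNA and 1.93 ± 0.07 with control shRNA (2.23-fold and 3.81-fold), a difference of -0.77 ± 0.09 (adjusted p = 0.000371). Its untreated level was higher with TBLR1 shRNA, by 0.66 ± 0.07 (adjusted p = 8.58e-07). Treated Pdk4 arrays overlapped, at 11.86, 11.84 and 11.74 with TBLR1 shRNA against 11.79, 11.97 and 12.01 with control shRNA. Treated Ppargc1a differed by -0.80, TBLR1 minus control shRNA, and its arrays did not overlap. Crat, which exchanges acetyl groups between carnitine and CoA, stood at 9.05, 9.04 and 9.03 with isoproterenol and 8.99, 9.01 and 9.02 without it in TBLR1 shRNA cells, against 9.30, 9.42 and 9.30 and 9.04, 8.94 and 9.08 in control shRNA cells. It rose in control shRNA cells (0.32 ± 0.04, adjusted p = 7.51e-05) and was not called in TBLR1 shRNA cells (0.03 ± 0.04, adjusted p = 0.719). The difference of these responses was -0.28 ± 0.06 (adjusted p = 0.0263). It was lost after centring on the hybridisation controls (adjusted p = 0.241) and in 6 of the 12 repeats that each leave out 1 array, replicate 2 of any group or replicate 3 of either TBLR1 shRNA group (adjusted p up to 0.0709).

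**Figure D4:**
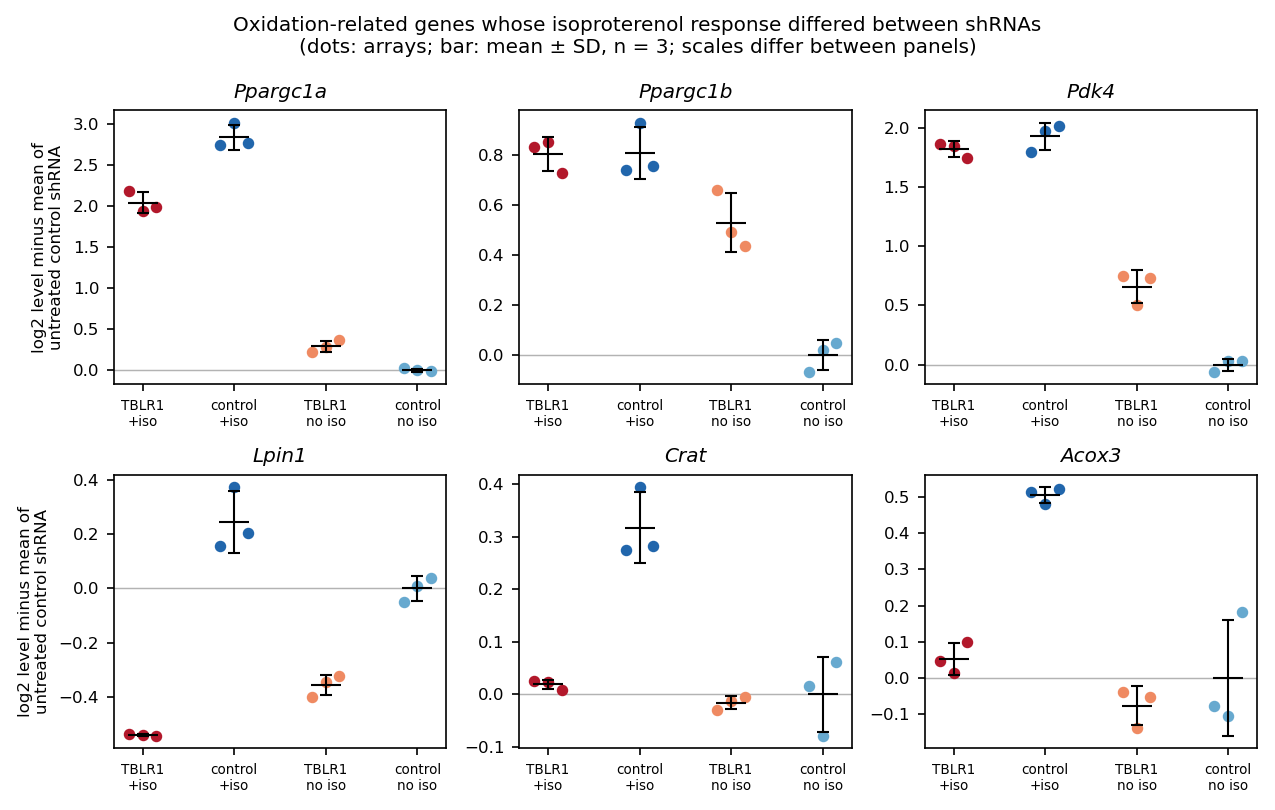
Log2 levels, minus the mean of untreated control shRNA cells, of Ppargc1a, Ppargc1b, Pdk4, Lpin1, Crat and Acox3, whose isoproterenol response was called different between the shRNAs, on each array (dots) with group mean and SD (bar, n = 3). Ppargc1a and Pdk4 rise with isoproterenol under both shRNAs and by less with TBLR1 shRNA (1.75 against 2.84, and 1.16 against 1.93), and the scales differ between panels.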

How the data were processed

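RNA of 12 samples of 3T3-L1 adipocytes was turned into biotinylated cRNA for Affymetrix arrays, per the labels' protocols. The authors deposited 1 value per probe set, taken as a log2 level from its range of 5.39 to 14.58. Arrays agreed within 0.00781 at every rank, so the deposited log2 values had been quantile normalised and a shift of most genes in one direction would not be seen. For background correction, probe summarisation and genome build, details are not given in the sources used. Arrays give no counts, so their number limits the precision.

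Of 16553 probe sets, 61 were controls and 15270 had exactly 1 symbol in the platform annotation, which can be old. The other 1222 had no symbol or more than 1. The table gave 15267 genes, with the brighter probe set taken for 3 genes. Within groups arrays correlated at 0.998 to 0.999. The labels do not say whether replicates were separate cultures, and the spread behind the p-values may therefore be technical.

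A model of 4 group means over the 12 arrays was fitted in R 4.3.3 by limma 3.58.1 (lmFit, eBayes, 8 residual and 7.38 prior degrees of freedom), with 5 contrasts and Benjamini-Hochberg adjustment over all genes. Figures used matplotlib 3.10.9. Alternatives were other scalings, variance models, filters, sample sets, a replicate block and leaving out each array.

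Same-numbered arrays of different groups had correlations of deviations between -0.209 and 0.183, so the numbers were not taken to pair the samples.

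The 9 members and all lists were chosen with earlier results of these data known. Text names all members and, from each other list, up to 4 called genes with the largest changes in a comparison, or, with none called, up to 2 with the smallest p, plus the 3 genes most like each of the 3 members with the widest range. Others are said to be named after their values were seen. Listed symbols were matched through RefSeq identifiers. Muscle markers, with 10 measured, had 1 called higher and 1 lower without isoproterenol and 1 and 3 with it by shRNA. Macrophage markers, with 8 measured, had 2 and 1 in both, preadipocyte markers, with 11 measured, had 4 and 4 and then 4 and 3, and brown adipocyte markers, with 7 measured, had none. Of 12 adipocyte markers 9 were lower without isoproterenol and 10 with it. Over all genes 37.7% were called without isoproterenol and 41.7% with it, 20% and 22.3% lower.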

Additional observations from a re-analysis of the deposited data

Results flagged for a closer look

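None of the 9 enzymes met a criterion for a closer look. Over all genes 2.4% were called for a difference between the isoproterenol responses, and 44.5% of these calls were higher. The calls included 2 of 17 peroxisomal genes, 1 of 8 of malonyl-CoA and AMPK control and 4 of 16 regulators. They also included 2 of 12 other PPAR targets and 1 of 11 preadipocyte markers, and the other lists had none. In these 10 genes of the surrounding and marker lists, a test found a difference between the isoproterenol responses, TBLR1 minus control shRNA (limma, adjusted over all genes). On the log2 scale it was -1.09 for Ppargc1a, -0.77 for Pdk4, -0.54 for Ppargc1b, -0.43 for Lpin1, -0.41 for Ncoa1, -0.38 for Acox3, -0.30 for Fgf21, -0.28 for Crat and -0.26 for Stk11, and 0.46 for Pdgfra, a receptor of the preadipocyte markers. Pdgfra responded by 0.02 ± 0.04 with TBLR1 shRNA (adjusted p = 0.819) and by -0.44 ± 0.04 with control shRNA (adjusted p = 2.27e-06). Ppargc1b, a relative of PGC-1α, differed with isoproterenol by 0.27 ± 0.06 with TBLR1 shRNA and 0.81 ± 0.06 with control shRNA. Its untreated level was higher with TBLR1 shRNA, by 0.53 ± 0.06 (adjusted p = 4.6e-06). Its treated arrays overlapped, at 9.06, 9.08 and 8.95 with TBLR1 shRNA against 8.97, 9.16 and 8.98 with control shRNA. Stk11 was also higher untreated with TBLR1 shRNA, by 0.47 ± 0.04. Treated, it stood at 9.87, 9.87 and 9.88, against 9.64, 9.68 and 9.67 with control shRNA. Ncoa1, a nuclear receptor coactivator, responded by 0.08 ± 0.05 with TBLR1 shRNA (adjusted p = 0.353) and 0.49 ± 0.05 with control shRNA (adjusted p = 1.24e-06). Lpin1, a phosphatidate phosphatase that also works with PGC-1α, fell by 0.18 ± 0.05 with TBLR1 shRNA (adjusted p = 0.0305) and rose by 0.24 ± 0.05 with control shRNA (adjusted p = 0.00235). The fall lost its call in 7 of 21 alternatives. These were cyclic loess, hybridisation control centring and leaving out replicate 2 or 3 of the untreated, or any replicate of the treated, TBLR1 shRNA cells (adjusted p up to 0.124). Acox3, a peroxisomal acyl-CoA oxidase, stood at 7.25, 7.22 and 7.30 in TBLR1 shRNA cells with isoproterenol and 7.17, 7.07 and 7.15 without it, against 7.72, 7.68 and 7.73 and 7.13, 7.10 and 7.39 in control shRNA cells.

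The calls of the difference for Ppargc1a, Pdk4, Ppargc1b, Lpin1, Ncoa1 and Pdgfra held in all alternatives run for them. Those of Acox3, Crat, Fgf21 and Stk11 were lost after centring on the hybridisation controls (adjusted p = 0.0751, 0.241, 0.239 and 0.321). Acox3 also lost its call in the repeats that leave out 1 array, except those without replicate 3 of the untreated control shRNA cells or replicate 2 of the untreated TBLR1 shRNA cells (adjusted p up to 0.0861). Fgf21 lost it in 8 such repeats (adjusted p up to 0.0821), and kept it without replicate 1 of the untreated control, untreated TBLR1 or treated control shRNA cells or replicate 3 of the treated TBLR1 shRNA cells. Crat lost it without replicate 2 of any group or replicate 3 of either TBLR1 group (up to 0.0709), and Stk11 without replicate 1 of the untreated control shRNA cells or replicates 2 or 3 of either treated group (up to 0.0683).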

How the results depend on the processing

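The 9 members gave 936 values under 21 alternatives, of which 900 stayed on their side of the threshold, 25 lost a call, 11 gained one and none reversed a call. Among the 900 are values from median centring and from averaging of probe sets, which could not move the difference of a member. The number of members called for TBLR1 shRNA without isoproterenol, 3, became 5 with cyclic loess, with centring on the hybridisation controls and with array weights. For isoproterenol with control shRNA it was 3 and became 1 with hybridisation control centring. For isoproterenol with TBLR1 shRNA it was 2 and became 1 with cyclic loess, 0 with hybridisation control centring and 1 with only the arrays compared. The replicate block left 1 there, without Acadm (adjusted p = 0.0692), and changed no other call of a member. Leaving out 1 array gave 3 to 4 members called for TBLR1 shRNA without isoproterenol, 3 to 4 with it, 2 to 3 for isoproterenol with control shRNA, 0 to 2 with TBLR1 shRNA and 0 for the difference. The genes called in these repeats were 5177 to 5844 (5756 with all arrays) and 5829 to 6373 (6372) for the shRNA, 2250 to 2900 (2833) and 752 to 1681 (1353) for isoproterenol with control and TBLR1 shRNA, and 198 to 385 (366) for the difference. The 752 came without replicate 3 of the untreated TBLR1 shRNA cells, and replicate 2 of the untreated or treated ones gave 834 and 873. For the difference, 198 came without replicate 3 and 228 without replicate 2 of the treated TBLR1 shRNA cells, 221 and 237 without replicates 2 and 3 of the untreated ones, 232 and 218 without replicates 2 and 3 of the treated control shRNA cells, and 235 without replicate 2 of the untreated ones.

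Hybridisation control centring moved the share of calls that were higher, with isoproterenol present, to 75.0% against 46.7%, and without it to 66.6% against 46.9%. For isoproterenol with control shRNA it was 25.2% against 41.5%, and for the difference 59.9% against 44.5%. Cyclic loess gave 56.5% against 46.1% for isoproterenol with TBLR1 shRNA. The difference has no value from only the arrays compared. The deposited values carry no measure of background, so how far a gene lies above it was not analysed here.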
